A study of Danio rerio with 12 samples.

Results

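Precursor genes of neuropeptides and peptide hormones were followed through cells sorted from the adult zebrafish brain, 48 hours after injection of an amyloid peptide or of a control. The members came from a list of 55 zebrafish gene names. Of these, 53 names matched the deposited count table and 2 (vgf and scg2a) had no match and are not analysed here. A symbol matched as written for 39 names, a symbol without the paralog letter for 7, a RefSeq synonym for 3 (galn as GAL, uts1 as UCN, sst3 as sst7) and a human-style name for 4 (sst1.1 as SST, and cart1, cart2 and cart3 as CARTPT). SCG5 stands for 2 genes and CARTPT for 4, which are told apart here by chromosome. The names ccka and cckb both matched the single gene labelled CCK once the paralog letter was dropped. Which of these paralogs it is was not settled, and the other has no gene of its own here. The set therefore held 54 of the 31953 genes in the table. Some table symbols look unlike the zebrafish names they stand for: PENK is penkb, POMC is pomca, CRH is crhb, ADCYAP1 is adcyap1a and UCN3 is ucn3l.

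Neuropeptides are made as larger precursors that enter the secretory pathway, are cut by prohormone convertases and carboxypeptidases, and are stored with granins in dense-core granules until release. Most of them act on G protein-coupled receptors, and many of their genes are transcribed by small, distinct sets of neurons, above all in the hypothalamus. Radial glia are the stem cells of the adult zebrafish brain, and a transgene driven by the her4.1 promoter labels them with EGFP.

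All fish carried Tg(her4.1:EGFP) and were 6 months old. AB42, the amyloid peptide, or CPP, the control injection, was delivered into the brain ventricle, and cells of the dissociated brains were sorted by flow cytometry on EGFP. There were 3 libraries each of AB42 GFP-positive, CPP GFP-positive, AB42 GFP-negative and CPP GFP-negative cells. The labels do not say whether the libraries of a group stem from separate fish, so p-values measure the spread between libraries, which may be technical. The GFP-negative fraction holds every sorted cell without the reporter and is no purified neuron sample.

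Total counts ran from 9262838 to 15584769 per library, and 3 counts, used here as the detection floor, corresponded to 0.164 to 0.326 CPM (a gene's counts relative to the library's total, scaled by TMM). Radial glia markers summed to 46600 to 50000 CPM in AB42 and 54900 to 58800 CPM in CPP GFP-positive libraries, against 2770 to 2800 CPM in AB42 and 2500 to 2630 CPM in CPP GFP-negative libraries. Mature neuron markers ran the other way, at 688 to 699 CPM in AB42 and 1130 to 1140 CPM in CPP GFP-positive libraries, against 5060 to 5280 CPM in AB42 and 8050 to 8180 CPM in CPP GFP-negative libraries. Microglia and macrophage markers summed to 5730 to 6000 CPM in AB42 GFP-negative libraries, against 1700 to 1850 CPM in CPP GFP-negative libraries. In GFP-positive libraries they summed to 2060 to 2190 CPM with AB42 and 1990 to 2120 CPM with CPP. After CPP the sum was thus higher in the GFP-positive libraries. Oligodendrocyte markers summed to 6120 to 6810 CPM in AB42 and 8280 to 9030 CPM in CPP GFP-positive libraries, against 22500 to 23300 CPM in AB42 and 18100 to 19900 CPM in CPP GFP-negative libraries. Of the neuron markers, syt1b was at 0 counts in AB42 GFP-positive libraries and none was at 0 in the other 3 groups. A gene was called changed when edgeR's quasi-likelihood test gave a Benjamini-Hochberg adjusted p under 0.05 over the 20237 genes that passed the count filter. These included 47 members. Fold changes are on the log2 scale with their standard error after the ± sign, and each p is adjusted. The 7 under the filter were HCRT (hypocretin), kiss2, qrfp, nmba (neuromedin B), grp (gastrin-releasing peptide) and the CARTPT genes of chromosomes 22 and 2.

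Precursor transcripts lay mostly in the GFP-negative cells. After AB42, 43 of the 47 members tested were called lower in GFP-positive than in GFP-negative cells and 2 higher, where 37.7% of all genes tested were lower and 36% higher. After CPP, 39 members were called lower and 5 higher, where 35.9% of all genes were lower and 37.1% higher. The 5 became 2 without CPP GFP-negative replicate 2, and also by library totals. Some members passed the count filter only through the GFP-negative libraries, where their levels were higher. Among them were PMCH, pmchl, pth2, UCN3, POMC, pomcb, avp, crha, TRH and NMU. Their calls between the fractions are a description and lend no support, though the counts given here include them. The median log2 fold change of the members, GFP-positive over GFP-negative, was -3.23 after AB42 and -2.55 after CPP, beside -3.18 and -2.82 for the 30 mature neuron markers tested and -0.01 and 0.01 for all genes. In bulk libraries fewer cells of a type and less RNA per cell cannot be told apart. Summed over all members, precursors took 718 to 806 CPM in AB42 and 1004 to 1140 CPM in CPP GFP-positive libraries, against 2099 to 2227 CPM in AB42 and 2565 to 2857 CPM in CPP GFP-negative libraries. Scaling by library totals in place of TMM moved the median of all genes to -0.26 after AB42 and -0.47 after CPP, with 5452 genes higher and 9280 lower after AB42 in place of 7286 and 7622, and 4630 higher and 10673 lower after CPP in place of 7517 and 7265. The members then split into 2 higher and 44 lower after AB42 and 2 higher and 43 lower after CPP.

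**Figure D1:**
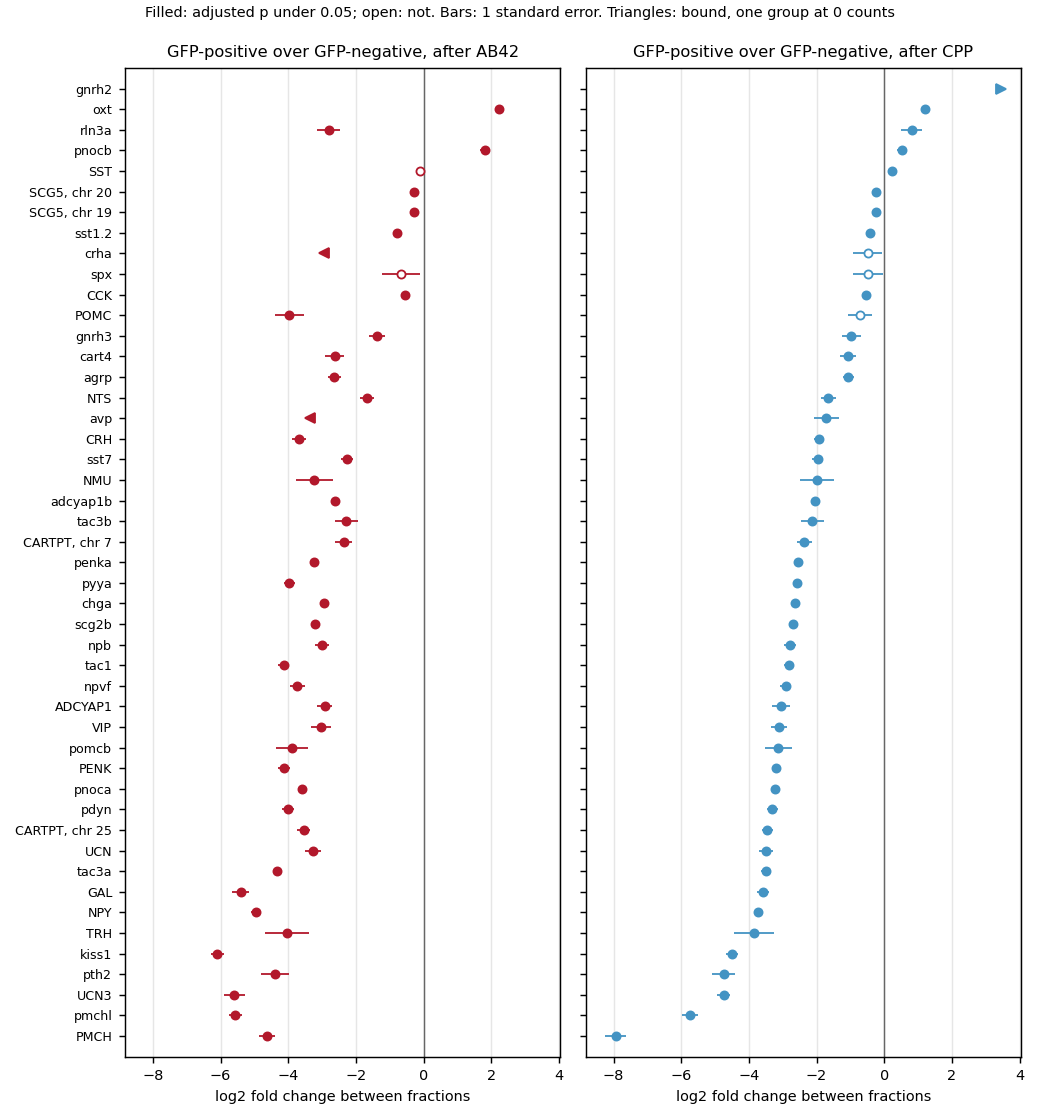
Log2 fold change of each tested precursor gene, GFP-positive over GFP-negative cells, after AB42 (left) and after CPP (right), with 1 standard error; filled points were called, open points were not, and triangles mark bounds for genes at 0 counts in a group. Most points lie left of 0 in both panels, and oxt and pnocb lie right of 0 in both; gnrh2 after AB42 is left out of the left panel because both of its groups were at or under the floor of 3 counts per library on average.

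The melanin-concentrating hormone precursors PMCH and pmchl, UCN3 (urocortin 3), pth2 (parathyroid hormone 2) and kiss1 (kisspeptin 1) were among the members lowest in GFP-positive cells, with log2 fold changes of -4.4 or lower after AB42 and -4.49 or lower after CPP. GAL (-5.41) and NPY (-4.97) were also low after AB42, under PMCH (-4.64) and pth2 (-4.4). In GFP-positive cells PMCH after CPP (3, 0 and 1 counts) was at or under the floor on average. So were UCN3 (2, 3 and 2) and pth2 (0, 4 and 5) after AB42, so the size of these folds is uncertain. The value of pth2 after AB42 was -3.79 without AB42 GFP-positive replicate 1 and -5.09 without AB42 GFP-positive replicate 3, and it was called lower in both. The members called higher in GFP-positive cells were oxt and pnocb after AB42, and gnrh2, oxt, rln3a, pnocb and SST after CPP. The gnrh2 call is a description only, for the reason given with that gene.

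Expressed per kilobase of annotated exon, so that genes of different length can be compared, oxt was the most abundant member in AB42 GFP-positive cells at 168.5 ± 11.4 CPM per kb (SD, n = 3). SST (somatostatin) followed at 152 ± 13.1 CPM per kb, and the SCG5 gene of chromosome 20 at 142 ± 8.05 CPM per kb. In CPP GFP-positive cells the same 3 genes stood at 160.1 CPM per kb for oxt, 211 for SST and 205 for SCG5. The most abundant members per kb in GFP-negative cells were scg2b (secretogranin II) at 179 after AB42 and the chromosome 20 SCG5 gene at 240.3 after CPP. In AB42 GFP-positive cells oxt and SST, and SST and SCG5, differed by less than the sum of their SDs. So did SCG5 and scg2b in CPP GFP-negative cells, at 240.3 ± 20.8 and 223 ± 9.4 CPM per kb. The genes of each pair were measured in the same libraries and kept their order in every library of the group. The order was not tested.

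With AB42 most precursors that changed in GFP-positive cells were lower, and in GFP-negative cells they moved in both directions. In GFP-positive cells 27 of the 47 members were called lower and 3 higher with AB42, where 12.5% of all genes tested were lower and 6.21% higher, and the members' median log2 fold change was -0.83. The 3 became 1 in a fit of the 6 GFP-positive libraries alone, where 36 of the 47 members were tested. There ADCYAP1 was not called (1.04, adjusted p = 0.06) and PMCH fell under the count filter, so its call was not tested. Of the members called lower, 17 were at least 2-fold lower, which 3.62% of all genes were. In GFP-negative cells 22 members were called lower and 9 higher, where 17.3% of all genes were lower and 20.9% higher, and the median was -0.28. The shares of members called higher, 6.38% in GFP-positive and 19.1% in GFP-negative cells, are near those of all genes. The 30 mature neuron markers had medians of -0.89 in GFP-positive and -0.59 in GFP-negative cells, with 23 called lower in GFP-positive and 26 in GFP-negative cells; their part in the members' changes was not tested. Nor was that of the microglia markers, whose sum in GFP-negative cells stood higher with AB42 (above). Under scaling by library totals, all genes split into 2112 higher and 1769 lower in GFP-positive cells in place of 1256 and 2523, and into 3191 higher and 5463 lower in GFP-negative cells in place of 4239 and 3494. The members then split into 3 higher and 26 lower in GFP-positive cells and 8 higher and 28 lower in GFP-negative cells.

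Set side by side, 15 members fell in both fractions: NPY, pyya, GAL, npb, UCN3, npvf, sst1.2, PENK, pdyn, adcyap1b, scg2b, chga, both SCG5 genes and the CARTPT gene of chromosome 25. Of the members, only ADCYAP1 was called higher in both. Some of these calls rest on single libraries or settings, as given with the genes. The members POMC, crha and rln3a were called higher in GFP-negative and lower in GFP-positive cells, and PMCH and pnocb were called lower in GFP-negative and higher in GFP-positive cells. The difference between the 2 AB42 effects was itself tested: 20 members had a lower effect in GFP-positive cells and 3 a higher one (PMCH, oxt and pnocb), where 16.5% and 5.46% of all genes did. By library totals the members split into 17 and 3, while all genes turned to 2109 lower and 3248 higher in place of 3334 and 1105. In 7 members neither fraction gave a call: CCK, NMU, NTS, TRH, pomcb, spx and tac3b. The GFP-negative change of spx was called without AB42 GFP-negative replicate 2 (-1.42, adjusted p = 0.0369).

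**Figure D2:**
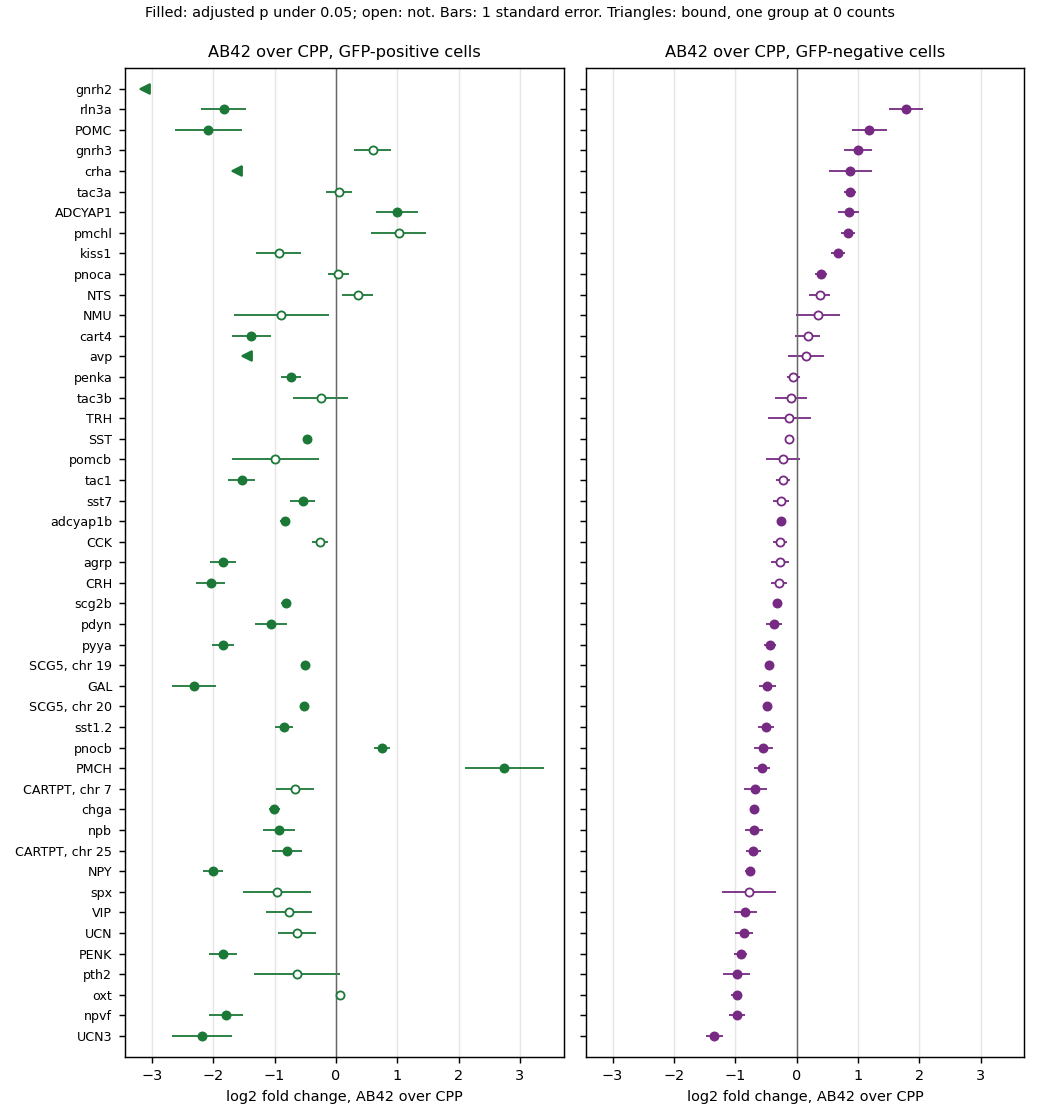
Log2 fold change of each tested precursor gene, AB42 over CPP, in GFP-positive cells (left) and in GFP-negative cells (right), ordered by the GFP-negative values, with 1 standard error; filled points were called, open points were not, and triangles mark bounds for genes at 0 counts in a group. On the left 27 genes were called lower and PMCH, pnocb and ADCYAP1 higher; on the right 22 were called lower and 9 higher, and TRH on the left and gnrh2 on the right are left out because both groups were at or under the floor on average.

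Among the precursors of feeding and arousal peptides, melanin-concentrating hormone showed 2 genes that moved apart. PMCH (ENSDARG00000073959, chromosome 4, 17347581 to 17349777, build GRCz10 per the submitters' processing notes, as for all coordinates here) stood at 19.5, 18.4 and 22.4 CPM in AB42 GFP-negative libraries, against 28.9, 27.5 and 32.5 CPM in CPP GFP-negative libraries. Its relative pmchl (ENSDARG00000076978, chromosome 5, 54042495 to 54043024) stood at 36.6, 36.7 and 41.7 CPM in AB42 GFP-negative libraries, against 22.7, 20.9 and 21 CPM in CPP GFP-negative libraries. For both genes the AB42 and CPP values did not overlap, PMCH being lower with AB42 and pmchl higher. The log2 fold changes were -0.56 ± 0.13, adjusted p = 0.000788, for PMCH and 0.83 ± 0.12, adjusted p = 3.17e-07, for pmchl. Exons of PMCH overlap PARPBP on the opposite strand by 24 bases.

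In GFP-positive cells both were scarce. PMCH had 5, 11 and 11 counts in AB42 GFP-positive libraries (0.417, 0.87 and 1.2 CPM), against 3, 0 and 1 counts in CPP GFP-positive libraries (0.237, 0 and 0.0931 CPM). Every AB42 library thus held more PMCH counts than any CPP library, and the log2 fold change was 2.74 ± 0.64, adjusted p = 0.00182; without CPP GFP-positive replicate 1 it was 3.95, adjusted p = 0.00152. These are a few counts per library, and the size of the fold rests on the counts in CPP GFP-positive libraries, which lay at or under the floor. The difference between the 2 AB42 effects on PMCH was 3.31 ± 0.65, adjusted p = 0.000172, and 4.51 without that library. For pmchl the counts were 9, 6 and 12 in AB42 and 4, 6 and 4 in CPP GFP-positive libraries, which overlapped, and the change of 1.02 ± 0.45, adjusted p = 0.117, was not called.

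NPY, the precursor of the appetite-stimulating neuropeptide Y (ENSDARG00000036222, chromosome 19, 20527423 to 20529826), fell in both fractions. It stood at 2.5, 2.06 and 4.24 CPM in AB42 and 10.3, 11.8 and 11.9 CPM in CPP GFP-positive libraries. GFP-negative libraries held 89, 85.5 and 91 CPM with AB42 and 152, 141 and 157 CPM with CPP. No AB42 value reached the lowest CPP value of the same fraction. The log2 fold change was -2.0 ± 0.17, adjusted p = 9.28e-12, in GFP-positive cells and -0.76 ± 0.08, adjusted p = 6.3e-10, in GFP-negative cells, and these effects differed (-1.24 ± 0.19, adjusted p = 3.85e-06). Peptide YY a, encoded by pyya (ENSDARG00000053449, chromosome 3, 33209225 to 33213066) and a relative of NPY, had the same order: 2.17, 2.29 and 3.37 CPM in AB42 against 10.8, 8.39 and 8.19 CPM in CPP GFP-positive libraries, and 40.6, 40.4 and 38.9 CPM in AB42 against 54.8, 50.6 and 57.3 CPM in CPP GFP-negative libraries. Its libraries did not overlap in either fraction, with -1.84 ± 0.18, adjusted p = 5.43e-10, in GFP-positive and -0.44 ± 0.10, adjusted p = 0.000417, in GFP-negative cells.

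The agouti-related peptide gene agrp (ENSDARG00000069089, chromosome 7, 34809673 to 34811825), whose product blocks melanocortin receptors, fell in GFP-positive cells. Its levels were 1.67, 1.9 and 3.15 CPM in AB42 and 7.98, 6.96 and 8.66 CPM in CPP GFP-positive libraries, with no overlap (-1.85 ± 0.21, adjusted p = 2.25e-08). In GFP-negative libraries they were 12.5, 13.4 and 14.8 CPM with AB42 and 16.9, 14.4 and 17.9 CPM with CPP, which overlapped, and the change was not called (-0.28 ± 0.14, adjusted p = 0.133) except by library totals (-0.41, adjusted p = 0.0195). The test of the difference between fractions gave -1.57 ± 0.26, adjusted p = 1.56e-05.

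POMC, whose product is cut into melanocortins, adrenocorticotropin and beta-endorphin, moved in opposite directions: 0.262 ± 0.247 CPM in AB42 against 1.05 ± 0.398 CPM in CPP GFP-positive cells, and 3.89 ± 0.488 CPM in AB42 against 1.7 ± 0.173 CPM in CPP GFP-negative cells (SD, n = 3 for this and all following means). The log2 fold changes were -2.08 ± 0.54, adjusted p = 0.00506, in GFP-positive and 1.19 ± 0.29, adjusted p = 0.00098, in GFP-negative cells, and without AB42 GFP-positive replicate 3 the GFP-positive value was -3.0, adjusted p = 0.00118. AB42 GFP-positive libraries held 1, 2 and 5 counts of POMC, under the floor on average. The POMC value is also uncertain, because its annotated exons overlap EFR3B (3667 bases) and si:rp71-36d5.4 (2490 bases) on the opposite strand. These overlaps, like all others given here, are summed over pairs of listed exons, so a base can count more than once. The labels do not state whether counting used strand. Its paralog pomcb had no call in either AB42 comparison.

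GAL, the galanin precursor (ENSDARG00000091377, chromosome 25, 10459468 to 10467915), stood at 0.668, 0.079 and 1.2 CPM in AB42 and 2.92, 3.36 and 2.61 CPM in CPP GFP-positive libraries. It was at 24.2, 24.2 and 28.4 CPM in AB42 and 33.9, 33 and 39.8 CPM in CPP GFP-negative libraries. AB42 values lay under all CPP values in both fractions. The log2 fold change was -2.31 ± 0.36, adjusted p = 6.86e-06, in GFP-positive cells, with -1.72 without AB42 replicate 2 and -2.99 without AB42 replicate 3, both called. In GFP-negative cells it was -0.48 ± 0.13, adjusted p = 0.00391, a call that ended without CPP GFP-negative replicate 3 (-0.38, adjusted p = 0.0504).

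The other feeding precursors gave smaller or less steady values. CART peptides curb food intake in mammals and fish; of their genes, CARTPT on chromosome 25 fell in GFP-negative cells (24.1 ± 1.84 CPM in AB42 against 39.3 ± 1.3 CPM in CPP, -0.71 ± 0.12, adjusted p = 1.35e-05), as did CARTPT on chromosome 7 (9.76 ± 0.357 against 15.6 ± 1.25 CPM, -0.68 ± 0.19, adjusted p = 0.00394). The chromosome 7 gene was not called in GFP-positive cells (-0.67 ± 0.31, adjusted p = 0.133) except without AB42 GFP-positive replicate 2 (-1.12, adjusted p = 0.0334) or CPP GFP-positive replicate 2 (-0.91, adjusted p = 0.0434). The chromosome 25 gene was also called lower in GFP-positive cells (-0.80 ± 0.25, adjusted p = 0.019), though AB42 and CPP libraries overlapped there. That call ended without AB42 GFP-positive replicate 1 (-0.63, adjusted p = 0.126), without AB42 GFP-positive replicate 3 (-0.63, adjusted p = 0.0907) and without CPP GFP-positive replicate 1 (-0.57, adjusted p = 0.173). It also ended in a fit of the 6 GFP-positive libraries alone (-0.76, adjusted p = 0.079). In GFP-positive cells cart4 fell (1.05 ± 0.372 CPM in AB42 against 2.7 ± 0.485 CPM in CPP, -1.38 ± 0.32, adjusted p = 0.0016), while its GFP-negative change was not called (0.18 ± 0.21, adjusted p = 0.524).

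The neuropeptide B gene npb fell in GFP-positive cells to 1.46 ± 0.143 CPM with AB42, against 2.84 ± 0.691 CPM with CPP (-0.93 ± 0.27, adjusted p = 0.0105; without CPP GFP-positive replicate 3, -0.80, adjusted p = 0.0567). In GFP-negative cells npb was at 11.9 ± 1.48 CPM with AB42 and 19.3 ± 1.41 CPM with CPP (-0.70 ± 0.14, adjusted p = 0.000144). Of 13 tested members of this feeding and arousal group, 8 were called lower and 1 higher in GFP-positive cells, beside 12.5% and 6.21% of all genes. In GFP-negative cells 7 were called lower and 2 higher, beside 17.3% and 20.9% of all genes, and the higher counts are near or under those shares.

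**Figure D3:**
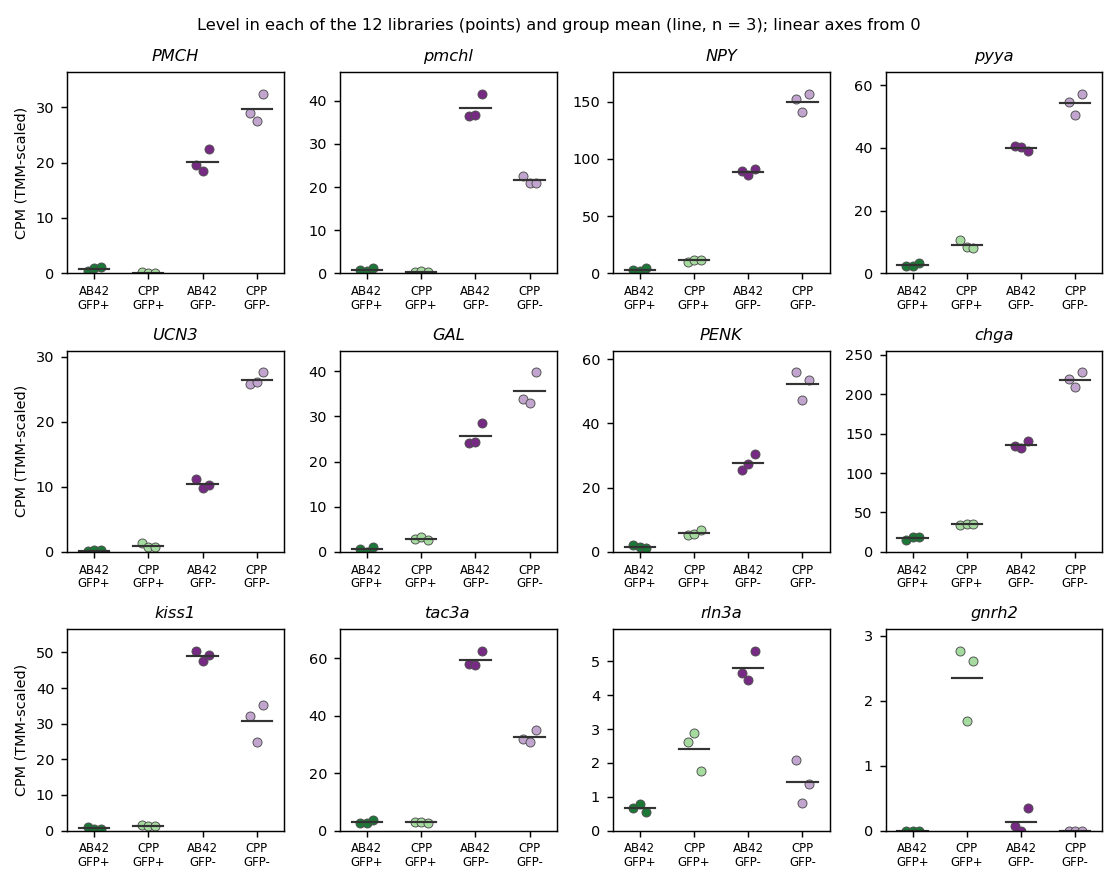
Levels in CPM (linear axes from 0) of 12 precursor genes in each library; in every panel the groups run AB42 GFP-positive, CPP GFP-positive, AB42 GFP-negative and CPP GFP-negative, points are libraries and lines are means of 3. PMCH and pmchl move in opposite directions between the AB42 and CPP GFP-negative groups, kiss1, tac3a and rln3a are higher with AB42 there, and gnrh2 is seen mainly in the CPP GFP-positive libraries.

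The group with most tested members held hypothalamic and neurohypophysial hormones and their relatives made elsewhere in the brain. Of its 16 tested members, 4 were called higher (oxt, SST, gnrh2 and rln3a) and 11 lower in GFP-positive cells after CPP, beside 37.1% and 35.9% of all genes. The lower ones include UCN3, pth2, avp and TRH, which passed the count filter only through the GFP-negative libraries. The oxytocin gene of fish, oxt (ENSDARG00000042845, chromosome 5, 71303113 to 71308749), stood at 112, 114 and 127 CPM in AB42 GFP-positive libraries against 25.9, 21.6 and 27.1 CPM in AB42 GFP-negative libraries. After CPP it stood at 114, 99.2 and 123 CPM in GFP-positive against 46, 49.8 and 50.3 CPM in GFP-negative libraries. The 2 fractions did not overlap after either injection, and oxt was higher in the GFP-positive cells by 2.25 ± 0.09, adjusted p = 8.91e-23, after AB42 and by 1.2 ± 0.08, adjusted p = 2.28e-15, after CPP on the log2 scale. In GFP-negative cells oxt fell with AB42 (-0.98 ± 0.09, adjusted p = 3.81e-11), where the AB42 and CPP libraries did not overlap. In GFP-positive cells they did overlap (0.07 ± 0.08, adjusted p = 0.597), and the effects differed by 1.05 ± 0.12, adjusted p = 1.67e-08.

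The vasopressin-type gene avp had 0 counts in all 3 AB42 GFP-positive libraries, against 13, 9 and 5 counts in CPP GFP-positive libraries. With the floor of 3 counts per library, avp was at least 2.72-fold lower with AB42 by group mean, as for all such bounds here. Its fitted change there (0.000116 as adjusted p) was called, but a fitted fold against 0 counts depends on the prior count and is not given. In GFP-negative cells avp overlapped between 2.77 ± 0.626 CPM with AB42 and 2.42 ± 0.752 CPM with CPP (0.16 ± 0.29, adjusted p = 0.71).

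Corticotropin-releasing hormone starts the hormonal stress response, and the CRH gene (ENSDARG00000027657, chromosome 24, 24702509 to 24736822) fell in GFP-positive cells. Its levels there were 1.17, 1.42 and 1.3 CPM with AB42 and 4.5, 6.16 and 5.49 CPM with CPP, without overlap (-2.04 ± 0.23, adjusted p = 1.75e-08). In GFP-negative libraries they were 17, 17.5 and 16 CPM with AB42 and 22.4, 18.1 and 21.3 CPM with CPP. These also did not overlap, but the change of -0.29 ± 0.13, adjusted p = 0.0777, was not called. It was called by library totals (-0.42, adjusted p = 0.0092), in a fit of the 6 libraries alone (-0.29, adjusted p = 0.0422) and without CPP GFP-negative replicate 2 (-0.40, adjusted p = 0.0261). The second gene of this hormone, crha, had 0 counts in the 3 AB42 GFP-positive libraries, against 5, 11 and 13 counts in CPP GFP-positive libraries, which makes it at least 3.05-fold lower (adjusted p = 8.43e-05).

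In GFP-negative cells crha was called higher with AB42, at 2.1 ± 0.405 CPM against 1.11 ± 0.303 CPM with CPP (0.87 ± 0.35, adjusted p = 0.0474). That call ended under RLE size factors (0.85, adjusted p = 0.0534), library totals (0.74, adjusted p = 0.0883) and DESeq2 (0.87, adjusted p = 0.136). It also ended without AB42 GFP-negative replicate 2 (0.75, adjusted p = 0.163) or 3 (0.82, adjusted p = 0.117) and without CPP GFP-negative replicate 1 (0.70, adjusted p = 0.163) or 2 (0.82, adjusted p = 0.119). The direction of the crha value was higher under each of these.

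The urocortins, ligands of the same receptor family as corticotropin-releasing hormone, fell in GFP-negative cells. UCN3 (ENSDARG00000087241, chromosome 4, 15982341 to 15982784) stood at 11.2, 9.86 and 10.3 CPM in AB42 and 25.8, 26 and 27.6 CPM in CPP GFP-negative libraries. In GFP-positive libraries it stood at 0.167, 0.237 and 0.217 CPM with AB42 and 1.42, 0.72 and 0.745 CPM with CPP. Neither fraction showed overlap, and UCN3 had the lowest log2 fold change of all tested members in GFP-negative cells (-1.34 ± 0.14, adjusted p = 3.43e-10), with -2.18 ± 0.49, adjusted p = 0.00125, in GFP-positive cells. The GFP-positive value rests on 2, 3 and 2 counts in AB42 libraries, under the floor on average. UCN fell in GFP-negative cells to 14.3 ± 0.456 CPM with AB42, against 25.8 ± 3.6 CPM with CPP (-0.86 ± 0.15, adjusted p = 1.32e-05), and was not called in GFP-positive cells (-0.63 ± 0.31, adjusted p = 0.157).

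TRH, the thyrotropin-releasing hormone precursor (ENSDARG00000006868, chromosome 8, 54107707 to 54110479), was scarce, with 0, 2 and 1 counts in AB42 and 2, 2 and 0 counts in CPP GFP-positive libraries (0, 0.158 and 0.109 and 0.158, 0.16 and 0 CPM), and 1.29, 1.58 and 1.93 CPM in AB42 and 1.45, 1.31 and 2.35 CPM in CPP GFP-negative libraries. AB42 and CPP values overlapped in both fractions. No fold is given for GFP-positive cells, where both groups were under the floor, so a change there was not detectable at this depth. The GFP-negative change was not called (-0.12 ± 0.35, adjusted p = 0.819).

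Among reproductive hormone precursors, gnrh2, the precursor of the midbrain form of gonadotropin-releasing hormone (ENSDARG00000044754, chromosome 21, 15728205 to 15732052), had 35, 21 and 28 counts in the CPP GFP-positive libraries (2.77, 1.68 and 2.61 CPM). It had 0 counts in all 3 AB42 GFP-positive libraries, 1, 0 and 5 counts in AB42 GFP-negative libraries and 0 counts in all 3 CPP GFP-negative libraries. By the floor it was at least 8.67-fold lower with AB42 in GFP-positive cells, and at least 11.0-fold higher in GFP-positive than in GFP-negative cells after CPP. These values are a description: gnrh2 passed the count filter through the CPP GFP-positive libraries, where it was high, so its tests against that group lend no support. The counts given here still include it. After CPP it is among the 5 members higher in GFP-positive cells. With AB42 it is among the 27 lower there, the 17 at least 2-fold lower and the 20 with a lower effect, and in the counts of this hormone group. It is counted among the 43 members lower in GFP-positive cells after AB42 (adjusted p = 0.0478), where both groups were at or under the floor on average and no fold is given. That call ended in DESeq2 (adjusted p = 0.115) and without any one of the 3 AB42 GFP-positive libraries, CPP GFP-positive replicate 1 or 3, or AB42 GFP-negative replicate 3 (adjusted p = 0.324 without the last). Nor is a fold given for AB42 against CPP in GFP-negative cells, for the same reason. That change was not called (adjusted p = 0.0546). It was called with the replicate block (adjusted p = 0.0466), with no count filter (adjusted p = 0.038) and without AB42 GFP-negative replicate 2 (adjusted p = 0.0215).

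gnrh3, the forebrain form, was called higher with AB42 in GFP-negative cells, at 6.26 ± 0.951 CPM against 3.13 ± 0.507 CPM with CPP (1.0 ± 0.23, adjusted p = 0.000498), and had no call in GFP-positive cells (0.60 ± 0.30, adjusted p = 0.178). Its annotated exons overlap ECD by 177 bases on the opposite strand. kiss1 (ENSDARG00000075829, chromosome 11, 23059152 to 23069158), which encodes a kisspeptin expressed in the habenula of zebrafish, stood at 50.5, 47.5 and 49.4 CPM in AB42 and 32.2, 25 and 35.3 CPM in CPP GFP-negative libraries. All AB42 values were above all CPP values, and the rise was called (0.67 ± 0.11, adjusted p = 5.91e-06). In GFP-positive libraries kiss1 was at 1.0, 0.553 and 0.543 CPM with AB42 and 1.5, 1.36 and 1.21 CPM with CPP. These did not overlap and were lower with AB42, but the change missed the threshold (-0.94 ± 0.36, adjusted p = 0.0701); without AB42 GFP-positive replicate 1 it was called (-1.3, adjusted p = 0.042). The 2 effects differed (-1.6 ± 0.38, adjusted p = 0.00159).

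The gene npvf (ENSDARG00000036227, chromosome 19, 20392667 to 20395809) encodes RFamide peptides, among them the gonadotropin-inhibitory type. It stood at 0.918, 0.949 and 0.652 CPM in AB42 and 3.0, 2.56 and 3.44 CPM in CPP GFP-positive libraries. GFP-negative libraries held 12, 11.8 and 10.6 CPM with AB42 and 21.7, 22.6 and 23.3 CPM with CPP. AB42 libraries were lower in both fractions without overlap (-1.79 ± 0.28, adjusted p = 6.17e-06, in GFP-positive and -0.98 ± 0.13, adjusted p = 1.7e-07, in GFP-negative cells), and the difference between the effects was not called (-0.81 ± 0.32, adjusted p = 0.0607); without CPP GFP-positive replicate 2 it was (-0.92, adjusted p = 0.0437).

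Somatostatin restrains the release of growth hormone and of many other hormones. SST (ENSDARG00000040799, chromosome 15, 36299017 to 36300882) stood at 97.8, 103 and 116 CPM in AB42 and 149, 138 and 153 CPM in CPP GFP-positive libraries, and at 108, 111 and 122 CPM in AB42 and 123, 120.4 and 129 CPM in CPP GFP-negative libraries. AB42 values were lower without overlap in GFP-positive cells only (-0.48 ± 0.07, adjusted p = 2.59e-06; in GFP-negative cells -0.13 ± 0.07, adjusted p = 0.142). The GFP-negative change was called by library totals (-0.26, adjusted p = 0.000782) and without AB42 GFP-negative replicate 3 (-0.21, adjusted p = 0.0274). The test of the difference gave -0.35 ± 0.10, adjusted p = 0.00828, and it was no longer called without AB42 GFP-negative replicate 3 (-0.22, adjusted p = 0.136), without CPP GFP-negative replicate 1 (-0.26, adjusted p = 0.0683) or 2 (-0.25, adjusted p = 0.0784), or by library totals (-0.12, adjusted p = 0.342).

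Between the fractions after CPP, SST was slightly higher in GFP-positive cells (0.24 ± 0.07, adjusted p = 0.00261). Under library totals its direction turned (-0.25, adjusted p = 0.000537), and the call ended without CPP GFP-negative replicate 1 (0.15, adjusted p = 0.0771) or 2 (0.13, adjusted p = 0.105). After AB42 the fractions overlapped and SST was not called (-0.11 ± 0.07, adjusted p = 0.151), though it was called lower by library totals (-0.37, adjusted p = 5.15e-06) and without AB42 GFP-positive replicate 3 (-0.18, adjusted p = 0.0304).

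Its neighbour on chromosome 15, sst1.2, fell in both fractions: 9.02 ± 1.01 CPM in AB42 against 16.2 ± 2.5 CPM in CPP GFP-positive cells (-0.85 ± 0.15, adjusted p = 3.36e-05), and 15.3 ± 1.37 CPM in AB42 against 21.6 ± 1.96 CPM in CPP GFP-negative cells (-0.50 ± 0.13, adjusted p = 0.0018). Another somatostatin gene, sst7, passed the threshold barely in GFP-positive cells (-0.54 ± 0.20, adjusted p = 0.05), and that call ended under RLE size factors, library totals, no count filter, DESeq2 and a fit of the 6 libraries alone. It also ended without any one of 10 libraries, all but AB42 GFP-positive replicate 3 and CPP GFP-negative replicate 3, with values from -0.59, adjusted p = 0.0853, to -0.40, adjusted p = 0.249.

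rln3a (ENSDARG00000070780, chromosome 3, 19057436 to 19060897), a relaxin-3 gene whose mammalian counterpart is made by neurons of the nucleus incertus, moved in opposite directions. In GFP-positive libraries it stood at 0.668, 0.79 and 0.543 CPM with AB42 and 2.61, 2.88 and 1.77 CPM with CPP. In GFP-negative libraries it stood at 4.66, 4.44 and 5.31 CPM with AB42 and 2.08, 0.826 and 1.37 CPM with CPP. Neither pair overlapped: rln3a was lower with AB42 in GFP-positive cells (-1.83 ± 0.37, adjusted p = 0.000302) and higher in GFP-negative cells (1.79 ± 0.28, adjusted p = 1.98e-06), and the difference was called (-3.62 ± 0.46, adjusted p = 1.11e-07). Its exons overlap an opposite-strand gene by 134 bases.

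Between the fractions after AB42, rln3a was lower in GFP-positive cells (-2.81 ± 0.33, adjusted p = 1.74e-09). After CPP it was called higher there (0.81 ± 0.31, adjusted p = 0.0179), although the libraries overlapped, and this call ended by library totals (0.34, adjusted p = 0.325) and in DESeq2 (0.74, adjusted p = 0.0525). It also ended without CPP GFP-negative replicate 2 (0.47, adjusted p = 0.194) and without CPP GFP-positive replicate 1 (0.76, adjusted p = 0.0521) or 2 (0.67, adjusted p = 0.0848).

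The gene pth2 (ENSDARG00000022951, chromosome 17, 33542683 to 33546512), whose zebrafish product has been tied to the sensing of neighbouring fish, stood at 7.31, 3.71 and 6.56 CPM in AB42 and 11.7, 9.63 and 12.9 CPM in CPP GFP-negative libraries. In GFP-positive libraries it was at 0, 0.316 and 0.543 CPM with AB42 and 0.553, 0.32 and 0.372 CPM with CPP. GFP-negative libraries did not overlap and were lower with AB42 (-0.98 ± 0.22, adjusted p = 0.00041), while GFP-positive libraries overlapped (-0.63 ± 0.70, adjusted p = 0.602). Of the 16 tested members of this hormone group, 10 were called lower in GFP-positive cells, beside 12.5% of all genes. In GFP-negative cells 6 were called lower and 4 higher, beside 17.3% and 20.9% of all genes, and the higher count is near that share.

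**Figure D4:**
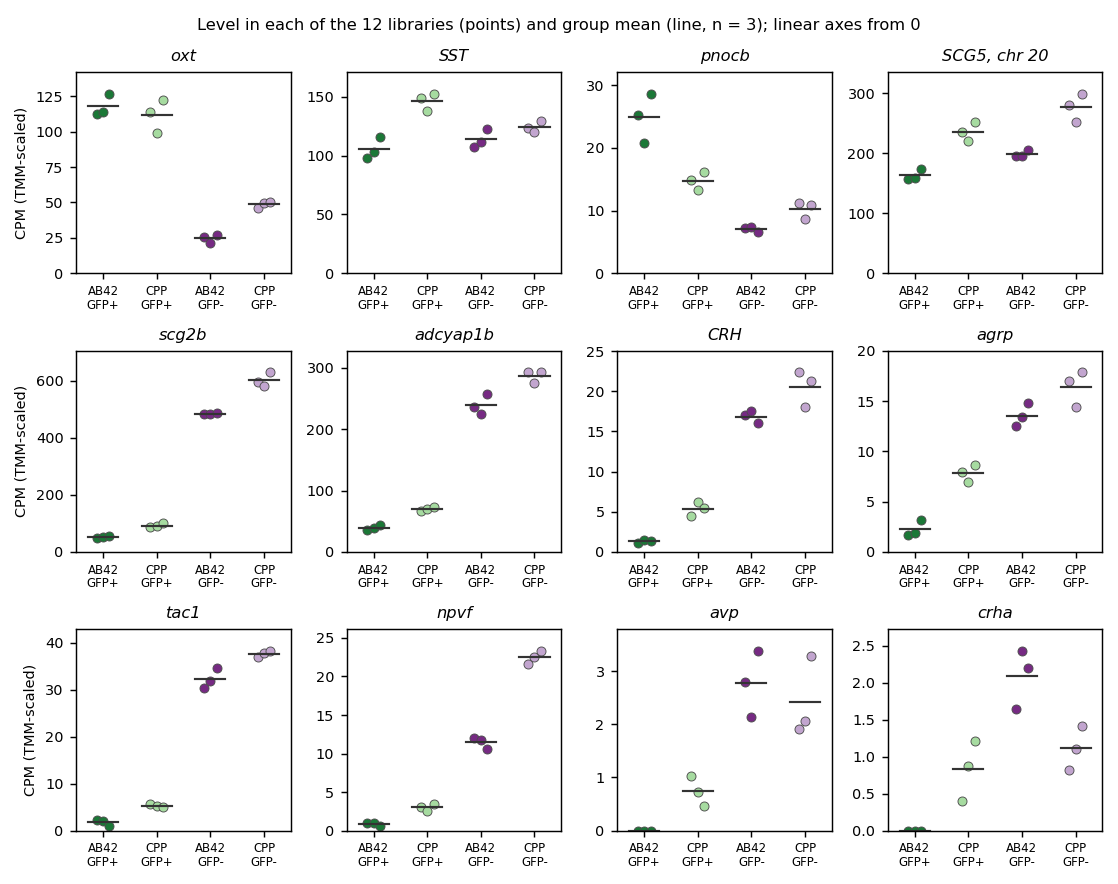
Levels in CPM (linear axes from 0) of a further 12 precursor genes in each library, with the groups in the order AB42 GFP-positive, CPP GFP-positive, AB42 GFP-negative and CPP GFP-negative; points are libraries and lines are means of 3. oxt and pnocb are highest in GFP-positive libraries, and avp and crha have 0 counts in all AB42 GFP-positive libraries.

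Of the 5 opioid precursors tested, 3 were called lower and 1 higher with AB42 in each fraction, beside 12.5% and 6.21% of all genes in GFP-positive and 17.3% and 20.9% in GFP-negative cells. This count leaves out POMC and pomcb, which are counted with the feeding peptides. POMC was called lower in GFP-positive and higher in GFP-negative cells, and pomcb was called in neither. PENK, a proenkephalin gene (ENSDARG00000036045, chromosome 7, 58384420 to 58393646), stood at 2.09, 1.5 and 1.09 CPM in AB42 and 5.14, 5.44 and 6.7 CPM in CPP GFP-positive libraries. GFP-negative libraries held 25.4, 27.3 and 30.4 CPM with AB42 and 55.9, 47.1 and 53.6 CPM with CPP. All AB42 values were lower than the CPP values of their fraction, with -1.84 ± 0.22, adjusted p = 6.19e-08, in GFP-positive and -0.91 ± 0.11, adjusted p = 1.07e-08, in GFP-negative cells, and these effects differed (-0.93 ± 0.26, adjusted p = 0.0067). The other proenkephalin gene, penka, fell in GFP-positive cells (5.65 ± 0.569 CPM with AB42 against 9.36 ± 2.09 CPM with CPP, -0.73 ± 0.16, adjusted p = 0.000993) and overlapped in GFP-negative cells (-0.05 ± 0.10, adjusted p = 0.718); the difference of -0.68 ± 0.19, adjusted p = 0.00794, was not called by library totals (-0.45, adjusted p = 0.077).

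Prodynorphin, pdyn, was lower with AB42 in GFP-positive cells (1.7 ± 0.887 against 3.44 ± 0.498 CPM, -1.07 ± 0.26, adjusted p = 0.00259; without AB42 GFP-positive replicate 1, -0.73, adjusted p = 0.0533). It was also lower in GFP-negative cells (26.4 ± 1.82 against 34.2 ± 0.941 CPM, -0.37 ± 0.12, adjusted p = 0.0157; without AB42 GFP-negative replicate 2, -0.32, adjusted p = 0.0852). The difference between these effects was not called (-0.70 ± 0.29, adjusted p = 0.082) except without AB42 GFP-positive replicate 3 (-1.07, adjusted p = 0.0096).

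The 2 prepronociceptin genes, whose product nociceptin acts on an opioid-like receptor, went different ways. pnocb (ENSDARG00000024189, chromosome 20, 34814524 to 34831143) stood at 25.2, 20.8 and 28.7 CPM in AB42 and 14.9, 13.3 and 16.1 CPM in CPP GFP-positive libraries. In GFP-negative libraries it stood at 7.24, 7.36 and 6.56 CPM with AB42 and 11.2, 8.74 and 10.9 CPM with CPP. No pair of the 4 groups overlapped; AB42 GFP-positive libraries were the highest and AB42 GFP-negative libraries the lowest. With AB42 pnocb rose in GFP-positive cells (0.75 ± 0.14, adjusted p = 7.64e-05) and fell in GFP-negative cells (-0.54 ± 0.15, adjusted p = 0.00442), with a difference of 1.29 ± 0.20, adjusted p = 6.64e-06.

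After AB42, pnocb was higher in GFP-positive than in GFP-negative cells (1.81 ± 0.14, adjusted p = 9.48e-14). After CPP the same contrast gave 0.52 ± 0.14, adjusted p = 0.00173, which was not called by library totals (0.03, adjusted p = 0.839) or without CPP GFP-negative replicate 2 (0.33, adjusted p = 0.0565). Its paralog pnoca was lower in GFP-positive cells after both injections (-3.59 after AB42 and -3.23 after CPP) and rose with AB42 in GFP-negative cells (60 ± 1.1 against 45.6 ± 5.19 CPM, 0.40 ± 0.09, adjusted p = 0.000754).

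Of 3 tachykinin genes, 1 was called lower with AB42 in GFP-positive cells and another higher in GFP-negative cells, beside 12.5% and 20.9% of all genes. tac1 (ENSDARG00000014490, chromosome 19, 26065403 to 26068962), the precursor of substance P, stood at 2.17, 2.13 and 0.978 CPM in AB42 and 5.61, 5.2 and 5.12 CPM in CPP GFP-positive libraries, which did not overlap (-1.54 ± 0.21, adjusted p = 9.52e-07). In GFP-negative libraries it was at 30.3, 31.8 and 34.7 CPM with AB42 and 36.9, 37.9 and 38.3 CPM with CPP, with no overlap and no call (-0.22 ± 0.11, adjusted p = 0.1). The tac1 change there was called by library totals (-0.36, adjusted p = 0.00841) and in a fit of the 6 libraries alone (-0.23, adjusted p = 0.0393). The neurokinin B gene tac3a (ENSDARG00000093089, chromosome 23, 28212948 to 28214878) stood at 58.1, 57.8 and 62.6 CPM in AB42 and 32, 30.7 and 35 CPM in CPP GFP-negative libraries, and rose without overlap (0.87 ± 0.10, adjusted p = 2.5e-09). In GFP-positive libraries tac3a was at 2.59, 2.77 and 3.69 CPM with AB42 and 3.08, 2.88 and 2.61 CPM with CPP, which overlapped (0.05 ± 0.21, adjusted p = 0.909). The effects on tac3a differed (-0.82 ± 0.23, adjusted p = 0.00746), and tac3b had no call in either fraction. Exons of tac3a overlap an opposite-strand gene by 42 bases.

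Of the 2 genes for pituitary adenylate cyclase-activating polypeptide (PACAP), ADCYAP1 and adcyap1b, 1 rose and 1 fell with AB42 in both fractions. ADCYAP1 was at 1.52 ± 0.158 CPM in AB42 against 0.756 ± 0.0709 CPM in CPP GFP-positive cells (0.99 ± 0.35, adjusted p = 0.0391). In GFP-negative cells it was at 11.4 ± 2.15 CPM with AB42 and 6.37 ± 0.388 CPM with CPP (0.85 ± 0.17, adjusted p = 0.000131). Libraries did not overlap in either fraction. The GFP-positive call ended with no count filter (0.98, adjusted p = 0.0604) and in a fit of the 6 libraries alone (1.04, adjusted p = 0.06). It also ended on leaving out any one of the 6 GFP-positive libraries, with values from 0.95, adjusted p = 0.0827, without AB42 replicate 3 to 1.08, adjusted p = 0.0524, without AB42 replicate 1.

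The more abundant adcyap1b fell in both fractions: 39.1 ± 4.6 CPM in AB42 against 69.5 ± 3.16 CPM in CPP GFP-positive cells (-0.83 ± 0.08, adjusted p = 1.82e-10), and 239.8 ± 16.6 CPM in AB42 against 287 ± 10.6 CPM in CPP GFP-negative cells (-0.26 ± 0.07, adjusted p = 0.00184). Among the 6 tested genes of this family and other brain-gut peptides, 1 was called lower and 1 higher in GFP-positive cells, and 2 lower and 1 higher in GFP-negative cells, which is near the shares of all genes (12.5% and 6.21% in GFP-positive, 17.3% and 20.9% in GFP-negative cells). VIP, vasoactive intestinal peptide and a relative of PACAP, fell in GFP-negative cells (5.66 ± 0.678 CPM with AB42 against 10.1 ± 0.211 CPM with CPP, -0.84 ± 0.18, adjusted p = 0.000322). Cholecystokinin (CCK) and neurotensin (NTS) were not called in either AB42 comparison, with changes of -0.26 and 0.35 in GFP-positive cells and -0.27 and 0.37 in GFP-negative cells. In GFP-negative cells CCK was called under RLE size factors (-0.29, adjusted p = 0.0445), library totals (-0.40, adjusted p = 0.00526), DESeq2 (-0.29, adjusted p = 0.0492), a fit of the 6 libraries alone (-0.27, adjusted p = 0.0456) and without AB42 GFP-negative replicate 3 (-0.37, adjusted p = 0.0277).

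Granins and their relatives are packed into dense-core granules with many peptides. All 4 members of this group were called lower in both fractions, beside 12.5% of all genes in GFP-positive and 17.3% in GFP-negative cells. The 2 SCG5 genes among them may share reads (below). SCG3, secretogranin III, is counted here with the granule genes and changed little. It stood at 567.5 ± 22.6 CPM in AB42 and 587.2 ± 22.4 CPM in CPP GFP-positive cells. In GFP-negative cells it stood at 235.5 ± 12.7 CPM with AB42 and 252.5 ± 15.7 CPM with CPP. scg2b (ENSDARG00000038574, chromosome 2, 47727833 to 47731033) stood at 48.2, 52.8 and 55.9 CPM in AB42 and 87, 89.6 and 100.5 CPM in CPP GFP-positive libraries. GFP-negative libraries held 483, 484 and 485 CPM with AB42 and 594, 581 and 630.1 CPM with CPP. Neither pair overlapped (-0.82 ± 0.07, adjusted p = 5.32e-12, in GFP-positive and -0.31 ± 0.06, adjusted p = 3e-05, in GFP-negative cells). chga, chromogranin A (ENSDARG00000008829, chromosome 20, 27121111 to 27146901), was at 15.1, 19 and 18.4 CPM in AB42 and 34.1, 35.2 and 35.8 CPM in CPP GFP-positive libraries, and at 135, 132 and 140.2 CPM in AB42 and 219, 208 and 228 CPM in CPP GFP-negative libraries. It too was lower with AB42 in each library of both fractions (-1.0 ± 0.09, adjusted p = 4.62e-11, in GFP-positive and -0.69 ± 0.07, adjusted p = 8.46e-11, in GFP-negative cells).

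The test of the difference between the 2 AB42 effects on chga gave -0.32 ± 0.11, adjusted p = 0.0364, a call that ended under RLE size factors (-0.28, adjusted p = 0.0692), library totals (-0.09, adjusted p = 0.576) and DESeq2 (-0.28, adjusted p = 0.068). It ended as well on leaving out AB42 GFP-positive replicate 1, CPP GFP-positive replicate 2 or 3, AB42 GFP-negative replicate 1 or 3, or CPP GFP-negative replicate 1 or 2, with values from -0.32, adjusted p = 0.0563, to -0.21, adjusted p = 0.208.

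SCG5 encodes 7B2, a chaperone of prohormone convertase 2, and both genes with this symbol were abundant in both fractions. On chromosome 20 (ENSDARG00000032126, chromosome 20, 29568927 to 29572057) it stood at 158, 159 and 174 CPM in AB42 and 236, 219.8 and 252 CPM in CPP GFP-positive libraries, and at 195, 195 and 206 CPM in AB42 and 279.7, 252 and 299.6 CPM in CPP GFP-negative libraries. On chromosome 19 (ENSDARG00000077045, chromosome 19, 47963035 to 47966205) it stood at 157, 148 and 159 CPM in AB42 and 224, 201 and 233 CPM in CPP GFP-positive libraries, and at 182, 185 and 195 CPM in AB42 and 259, 239 and 274 CPM in CPP GFP-negative libraries. The 2 genes kept a count ratio of 1.01 to 1.1 in all 12 libraries, and the RefSeq table lists a single scg5, so whether they are separate signals or shared reads cannot be told apart. AB42 libraries were lower in both fractions without overlap, by -0.53 ± 0.07, adjusted p = 1.03e-07, in GFP-positive and -0.48 ± 0.06, adjusted p = 1.33e-07, in GFP-negative cells for the chromosome 20 gene.

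The machinery around the precursors was measured with a list of processing enzymes and granule genes, of which 26 were tested. In GFP-positive cells 8 were called lower and 1 higher with AB42 (median -0.26), and in GFP-negative cells 12 lower and 5 higher (median -0.16). The shares called lower were 30.8% in GFP-positive and 46.2% in GFP-negative cells, beside 12.5% and 17.3% of all genes, and those called higher 3.85% and 19.2%, beside 6.21% and 20.9%. CPE, a carboxypeptidase that trims cut peptides, fell, with -0.66 ± 0.06, adjusted p = 1.07e-10, in GFP-positive and -0.56 ± 0.05, adjusted p = 7.41e-11, in GFP-negative cells. The granin-like pcsk1nl also fell, with -0.77 ± 0.08, adjusted p = 7.9e-09, in GFP-positive and -0.64 ± 0.07, adjusted p = 4.17e-10, in GFP-negative cells. PTPRN, a granule membrane gene, had -1.05 ± 0.14, adjusted p = 6.14e-07, in GFP-positive and -0.69 ± 0.09, adjusted p = 2.57e-08, in GFP-negative cells. The convertase gene PCSK1 was at 6.66 ± 1.11 CPM in AB42 against 14.2 ± 1.02 CPM in CPP GFP-positive cells (-1.08 ± 0.14, adjusted p = 1.35e-07). ECE1, a peptide-degrading endothelin-converting enzyme, rose in GFP-negative cells (2.01 ± 0.19, adjusted p = 5.18e-11), the fraction whose microglia and endothelium marker sums were also higher with AB42 (endothelium 138 to 159 CPM with AB42 against 78.5 to 84.2 CPM with CPP); their part in this rise was not tested.

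Of 58 tested neuropeptide receptor genes, 12 were called lower with AB42 in GFP-positive cells (median -0.64), and 12 lower and 3 higher in GFP-negative cells (median -0.22). Those called lower were 20.7% of the list in each fraction, beside 12.5% of all genes in GFP-positive and 17.3% in GFP-negative cells, and the 3 called higher were 5.17%, beside 20.9%. The receptor of corticotropin-releasing hormone, CRHR1, fell in both fractions (-1.48 ± 0.30, adjusted p = 0.000431, in GFP-positive and -0.74 ± 0.13, adjusted p = 1.11e-05, in GFP-negative cells). The mu-opioid receptor OPRM1 fell in both as well (-1.51 ± 0.39, adjusted p = 0.00444, in GFP-positive and -0.81 ± 0.16, adjusted p = 0.000108, in GFP-negative cells). The 3 receptors that rose in GFP-negative cells, named here after their values were seen, were KISS1R, a kisspeptin receptor (0.67 ± 0.15, adjusted p = 0.000558), TACR3 (ENSDARG00000003054), a neurokinin B receptor (0.62 ± 0.23, adjusted p = 0.0315), and SSTR1, a somatostatin receptor (0.44 ± 0.15, adjusted p = 0.0173). Among the ligands of these receptors, kiss1 and tac3a were called higher in the same libraries, while sst1.2 was called lower. The ligands tac3b, SST and sst7 were not called (SST and sst7 were called lower by library totals). The other kisspeptin gene, kiss2, was under the count filter. It had 8, 10 and 5 counts in AB42 and 13, 8 and 12 counts in CPP GFP-negative libraries, which overlapped. No other copy of these receptors was called higher there. The second TACR3 (ENSDARG00000075112) stood at 0.733 ± 0.356 CPM with AB42 and 1.21 ± 0.46 CPM with CPP. The gene sstr1b stood at 1.62 ± 0.27 CPM with AB42 and 3.45 ± 0.541 CPM with CPP. KISS1R stood at 19.3 ± 1.35 CPM in AB42 against 12.1 ± 0.388 CPM in CPP GFP-negative cells.

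**Figure D5:**
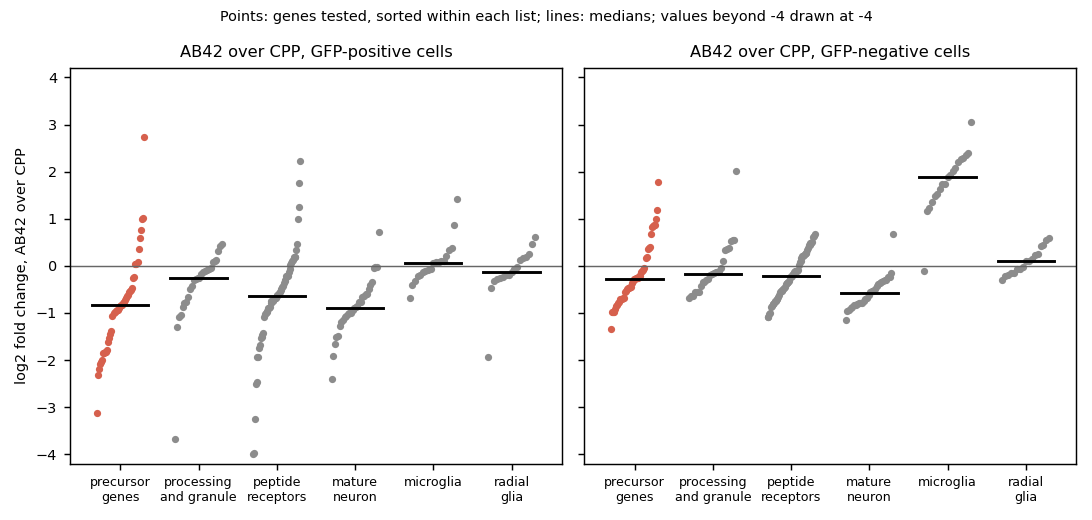
Log2 fold change, AB42 over CPP, of the tested genes of 6 lists in GFP-positive cells (left) and GFP-negative cells (right), without the precursors at or under the floor in both groups. Points are genes sorted within their list and horizontal lines are list medians of the fitted values. On the left the precursors avp, crha and gnrh2, at 0 counts with AB42, are drawn at their bounds from the floor. The precursor medians of -0.83 (left) and -0.28 (right) lie beside neuron marker medians of -0.89 and -0.59, and the precursors spread to both sides of 0 in GFP-negative cells.

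The precursors lay on both sides of the neuron marker median. In GFP-positive cells 25 of the 47 members had a log2 fold change above that median and 22 below it, and in GFP-negative cells 34 lay above and 13 below.

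The 7 members under the count filter held few counts. HCRT, whose orexin peptides promote wakefulness, had 3, 0 and 2 counts in AB42 and 1, 0 and 5 counts in CPP GFP-positive libraries, and 3, 4 and 4 counts in AB42 and 1, 4 and 3 counts in CPP GFP-negative libraries. All 4 groups overlapped for HCRT. The CARTPT gene of chromosome 22 had 8, 4 and 6 counts in CPP GFP-positive libraries against 0 in all CPP GFP-negative libraries, at least 2.35-fold higher by the floor. Its AB42 libraries held 1, 1 and 0 counts in GFP-positive and 0, 1 and 1 in GFP-negative cells.

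CARTPT on chromosome 2 had a similar spread, with 1, 0 and 0 counts in AB42 and 8, 7 and 7 counts in CPP GFP-positive libraries, and 2, 3 and 0 counts in AB42 and 0, 2 and 2 counts in CPP GFP-negative libraries. kiss2, the hypothalamic kisspeptin of zebrafish, had 0 counts in AB42 GFP-positive and 8, 10 and 5 counts in AB42 GFP-negative libraries, at least 1.88-fold lower in GFP-positive cells. nmba likewise had 0 counts against 6, 10 and 7 counts there, at least 1.87-fold lower. Counts of grp were 3, 4 and 2 in AB42 and 9, 7 and 5 in CPP GFP-positive libraries, and 12, 8 and 10 in AB42 and 6, 7 and 9 in CPP GFP-negative libraries. qrfp never passed 3 counts in a library.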

How the data were processed

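Messenger RNA was sequenced from cells sorted from zebrafish brains, 3 libraries in each of 4 groups. The authors deposited 1 table of whole-number read counts per Ensembl gene, and per the submitters' processing notes they used BWA 0.7.12, featureCounts and the builds GRCz10 and danRer10. Strand use and the annotation release are not stated in the labels. The counts had not been normalised. Total counts were 9262838 to 15584769 per library, which set a floor of 3 counts at 0.164 to 0.326 CPM, for counting error only.

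Genes were fitted with edgeR 4.0.16 (limma 3.58.1, R 4.3.3): filterByExpr over the 4 groups, which kept 20237 genes, TMM scaling, a mean per group (glmQLFit, 8 residual degrees of freedom, prior count 0.125) and glmQLFTest for 5 comparisons, with Benjamini-Hochberg adjustment over all genes tested and a threshold of 0.05. The standard error is the log2 fold change divided by the square root of F. A fold against a group at 0 counts was set against 3 counts per library. It is a bound on the ratio of group means, so single libraries can lie nearer the floor. The comparisons of AB42 with CPP share no libraries with each other, but each shares libraries with the comparisons of fractions.

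Members and gene lists were chosen with earlier results of these data known, and no list was tested as a set. All members could be named. Values of every library were given for 24 members, from those called in an AB42 comparison, those most abundant per kb of exon and those with the largest folds between fractions, smallest p first. From other lists at most 4 genes were named per comparison, by smallest p, with exceptions. KISS1R, TACR3 and SSTR1 were named after their values were seen, because they were called higher in GFP-negative cells. The second TACR3, sstr1b, SCG3 and syt1b were also named outside this rule. Alternatives were RLE size factors, library totals, no count filter, a CPM of at least 1 in at least 3 libraries, DESeq2 1.42.0, a fit of only the 6 libraries compared, the replicate number as a block, and leaving out each of 12 libraries. Replicates of a group differed beyond sampling noise (chi-square per degree of freedom 2.1 to 4.84), so none was a duplicate. No genome or sequence table of the build was used, so no sequences are shown.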

Additional observations from a re-analysis of the deposited data

Results flagged for a closer look

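For 23 precursor genes the effect of AB42 differed between GFP-positive and GFP-negative cells in edgeR's test of that difference, GFP-positive minus GFP-negative on the log2 scale. It was positive for PMCH (3.31), pnocb (1.29) and oxt (1.05). Without CPP GFP-positive replicate 1 the value of PMCH was 4.51.

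Negative differences of more than 2-fold belonged to rln3a (-3.62), POMC (-3.26), GAL (-1.83), CRH (-1.75), kiss1 (-1.6), agrp (-1.57), cart4 (-1.56), pyya (-1.4), tac1 (-1.31) and NPY (-1.24). The POMC value was -4.18 without AB42 GFP-positive replicate 3. GAL gave -1.24 without AB42 GFP-positive replicate 2 and -2.52 without AB42 GFP-positive replicate 3. Smaller negative differences were those of PENK (-0.926), tac3a (-0.818), penka (-0.679), adcyap1b (-0.576), scg2b (-0.508), SST (-0.346) and chga (-0.317). The calls of penka, SST and chga ended under the settings and libraries given with these genes in the report.

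The fitted differences of gnrh2 (-11.9), crha (-7.32) and avp (-6.48) rest on 0 counts in the AB42 GFP-positive libraries. They depend on the prior count and bound nothing. For gnrh2 the call also lends no support, because the gene passed the count filter through the CPP GFP-positive libraries.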

How the results depend on the processing

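Of 173 called results of single members, 158 kept their direction and call under every alternative and left-out library in which they were tested. The other 15 lost it under at least 1, of which 11 under an alternative other than leaving out a library. A setting in which a member fell under the filter or had no adjusted p was not counted against it. Scaling by library totals turned SST between the fractions after CPP to -0.25, and cut the members called higher there to 2. A fit of only the 6 GFP-positive libraries, with 36 members tested, cut the members called higher with AB42 to 1. In that fit ADCYAP1 was not called and PMCH fell under the count filter. Leaving out 1 library gave 2 members higher and 42 to 43 lower between fractions after AB42, 2 to 5 higher and 39 to 40 lower after CPP, 2 to 3 higher and 25 to 27 lower with AB42 in GFP-positive cells, 8 to 9 higher and 21 to 24 lower in GFP-negative cells, and 3 higher and 18 to 21 lower for the difference. The cause was not tested in any of these. Libraries of different groups that shared a replicate number deviated from their group means with correlations of -0.0209 to 0.0923 (median 0.0378). Those with different numbers gave -0.0942 to 0.0643 (median -0.0205). Of 12 libraries, 7 correlated best with their own number. These weak correlations do not settle whether the numbers pair libraries, and the main fit used no block. With the replicate number as a block, 2 members were higher and 43 lower between fractions after AB42, and 5 and 39 after CPP. With AB42 the block gave 3 and 27 in GFP-positive cells, 10 and 22 in GFP-negative cells, and 3 and 20 for the difference. No called result was lost. The member added in GFP-negative cells was gnrh2, with both groups at or under the floor on average. Counts of a few reads per library in GFP-positive cells limit PMCH, TRH, avp, crha, gnrh2, UCN3, POMC, pomcb, NMU and pth2.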

Other observations

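Of 29 circadian clock genes tested, 16 were called lower and 7 higher with AB42 in GFP-positive cells, and 19 lower and 6 higher in GFP-negative cells, in edgeR's quasi-likelihood test. The shares called lower were 55.2% in GFP-positive and 65.5% in GFP-negative cells, beside 12.5% and 17.3% of all genes. Those called higher were 24.1% and 20.7%, beside 6.21% and 20.9% of all genes, so the GFP-negative share is that of all genes. The repressor gene ciarta had a log2 fold change of -2.59 ± 0.08, adjusted p = 3.65e-24, in GFP-positive cells and -1.66 ± 0.07, adjusted p = 4.42e-21, in GFP-negative cells. The period gene PER1 (ENSDARG00000056885) had -2.74 ± 0.16, adjusted p = 4.62e-16, in GFP-positive and -2.34 ± 0.12, adjusted p = 7.59e-18, in GFP-negative cells. BHLHE41, another clock repressor, had -1.15 ± 0.06, adjusted p = 2.09e-17, in GFP-positive and -1.24 ± 0.06, adjusted p = 1.17e-19, in GFP-negative cells, and NR1D1 had -2.36 ± 0.13, adjusted p = 2.48e-16, in GFP-positive and -1.4 ± 0.12, adjusted p = 3.51e-12, in GFP-negative cells. The labels state no time of day for the dissections, and the part of the clock genes in the precursor changes was not tested.

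Pituitary hormone genes were near absent from the sorted cells. Of 15 such genes, 4 passed the count filter. The sum of the list was 21.6 to 23.9 CPM in AB42 and 23.5 to 25.7 CPM in CPP GFP-positive libraries, and 7.61 to 11.2 CPM in AB42 and 7.34 to 8.42 CPM in CPP GFP-negative libraries.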
